A study of Mus musculus with 12 samples.

Results

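The 5 genes described here encode the signals by which stromal cells start or restrain the formation of osteoclasts, the cells that resorb bone, and a receptor for them. They are Tnfsf11 (RANKL), Tnfrsf11b (osteoprotegerin, OPG), Tnfrsf11a (RANK), Csf1 (macrophage colony-stimulating factor, M-CSF) and Il34 (interleukin-34). They were taken by symbol from a table of 55573 mouse genes, and each symbol matched 1 gene. All 5 reached the minimum level of 1 read per 1000000 reads (RPM) in 3 or more of the 12 libraries and so were among the 13516 genes tested, although Il34 did so only through its day-21 libraries. RNA came from mouse embryonic fibroblasts of β-actin-TVA/p53−/− mice, so that every group lacked p53 and carried TVA, the receptor for avian RCAS viruses, from the β-actin promoter. The 4 groups, each of 3 libraries, were HOXB13 at day 21, vector at day 21, HOXB13 at day 1 and vector at day 1. HOXB13 cells had received RCAS-HOXB13, which carries a homeobox transcription factor, and vector cells had received RCAS-GFP. Day-1 cells were taken at confluence in DMEM with serum, and day-21 cells from another plate that had been kept in OsteoMAX-XF, a commercial osteogenic medium, so day, medium and plate cannot be told apart. The labels do not say that the 3 wells of a group came from separate animals or separate infections. The p-values thus rest on the spread among wells, part or all of which may be technical.

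RANKL is a membrane-bound or shed ligand of the tumour necrosis factor family, made in bone by osteocytes, osteoblasts and stromal cells. It binds RANK on osteoclast precursors and, through TRAF6, NF-κB and NFATc1, drives them to fuse and to resorb bone. OPG is a secreted decoy receptor that keeps RANKL from RANK, so the balance of RANKL to OPG is commonly used as a measure of osteoclast-forming stimulus. M-CSF, and in some tissues IL-34, acts on the receptor CSF1R and keeps the precursors alive.

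Gene reads per library numbered 13299600 to 15154317 in HOXB13 at day 21, 12173173 to 13235707 in vector at day 21, 13529964 to 14938139 in HOXB13 at day 1 and 11109392 to 13594129 in vector at day 1. Levels are given as the authors' reads per 1000000 reads of the TMM-scaled library size (RPM), and a count of 3 reads over a group came to 0.0614 to 0.0793 RPM. The mouse gene Hoxb13 was at 248 ± 8.59 RPM in HOXB13 and 0.343 ± 0.197 RPM in vector at day 21, and at 327 ± 3.28 RPM in HOXB13 and 0.375 ± 0.197 RPM in vector at day 1 (SD, n = 3 each). The labels do not give the species of the introduced HOXB13 sequence, so these values check the labels and may not measure its full level. Reads of that sequence and of the cells' own gene cannot be told apart. The fibroblast markers Col1a1, Col1a2, Col3a1, Col5a1, Pdgfra, Pdgfrb, Thy1, Vim, Dcn and Lum summed to at least 17592 RPM in every library. Their sums were 32144 to 33399 RPM in HOXB13 and 27199 to 30061 RPM in vector at day 21. At day 1 they were lower in HOXB13, at 17592 to 17935 RPM, than in vector, at 29442.5 to 30240 RPM. The virus also divided the libraries by sex-chromosome genes. Xist averaged 0.303 RPM in HOXB13 and 158 RPM in vector at day 21 and 0.332 RPM in HOXB13 and 427 RPM in vector at day 1. Ddx3y, on the Y chromosome, averaged 106 and 98.3 RPM in HOXB13 at day 21 and day 1 against 0.130 and 0.171 RPM in vector. HOXB13 and this difference in sex-chromosome genes therefore cannot be told apart in any comparison of the viruses below. In these bulk libraries, fewer cells of a type and less RNA per cell cannot be told apart either.

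The starts of Tnfsf11 and Csf1 are shown because Tnfsf11 is the ligand with the largest changes over time and Csf1 the most abundant of the 5 genes, and because HOXB13 is a DNA-binding factor. The sequences run 5′ to 3′ from 250 bases before to 50 bases after the start, from RefSeq on GRCm38.p6, with Tnfsf11 at chr14:78307994-78308293 and Csf1 at chr3:107760420-107760719, both on the minus strand. Capitals mark matches to the motifs searched.
Tnfsf11: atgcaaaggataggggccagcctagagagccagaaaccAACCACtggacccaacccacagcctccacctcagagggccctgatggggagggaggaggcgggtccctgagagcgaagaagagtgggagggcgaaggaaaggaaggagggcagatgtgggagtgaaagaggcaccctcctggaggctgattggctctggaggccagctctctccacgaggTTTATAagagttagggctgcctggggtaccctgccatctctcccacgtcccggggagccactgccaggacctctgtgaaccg
Csf1: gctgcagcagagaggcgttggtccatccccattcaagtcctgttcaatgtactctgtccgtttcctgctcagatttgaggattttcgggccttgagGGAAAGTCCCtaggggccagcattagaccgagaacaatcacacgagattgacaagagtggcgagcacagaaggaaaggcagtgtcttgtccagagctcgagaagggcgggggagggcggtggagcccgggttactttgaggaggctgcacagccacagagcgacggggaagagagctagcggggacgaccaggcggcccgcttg
The motifs, each searched on both strands, were the HOXB13 forms CAATAAA and TCGTAAA, the NF-κB form of GGG and TTTCC with NN between them, the RUNX form AACCAC and the TATA box TATAAA. In Tnfsf11 the RUNX form stood at -212 to -207 from the start and the TATA form, on the opposite strand, at -32 to -27. In Csf1 the NF-κB form, on the opposite strand, stood at -154 to -145. No match overlapped another. Neither HOXB13 form was found in these windows or in that of Tnfrsf11a at chr1:105780473-105780772 (plus strand), which held none of the motifs. Among 32851 promoters of the same length, 13% held the RUNX form, 13.6% the TATA form, 1.63% the NF-κB form, and 4.6% and 0.597% the HOXB13 forms CAATAAA and TCGTAAA. A match describes the letters of the window and is not evidence of a bound site. Promoters of 3 of the 5 genes were used; those of Tnfrsf11b and Il34 were not used here.

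Tnfsf11 (ENSMUSG00000022015, chr14:78277445-78308043 on the minus strand of GRCm38) rose with time in both kinds of cell and was highest in HOXB13 cells at day 21. It encodes RANKL. Its libraries stood at 111, 109 and 101 RPM in HOXB13 and at 49.1, 42.7 and 50.4 RPM in vector at day 21. At day 1 they stood at 3.43, 3.05 and 4.36 RPM in HOXB13 and at 5.54, 5.72 and 4.49 RPM in vector. Each day-21 library was above every day-1 library, and HOXB13 lay wholly above vector at day 21. At day 1 HOXB13 lay below vector, with the nearest libraries at 4.36 and 4.49 RPM. On the log2(RPM + 1) scale Tnfsf11 was higher in HOXB13 than in vector at day 21 by 1.16 ± 0.096 (SE; adjusted p = 1.59e-10, limma with Benjamini-Hochberg adjustment over all genes tested), a 2.26-fold difference of the means of 107 ± 5.28 and 47.4 ± 4.09 RPM (SD, n = 3 each). At day 1 it was lower in HOXB13, by a log2 difference of -0.44 ± 0.096 (adjusted p = 0.000276, limma), with means of 3.61 ± 0.676 RPM in HOXB13 and 5.25 ± 0.662 RPM in vector. That difference, on 47 to 71 reads per HOXB13 library and 60 to 77 per vector library, shrank to -0.28 with a pseudocount of 4 and to -0.27 without the TMM factors.

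The change of Tnfsf11 over time was 29.6-fold in HOXB13 (log2 difference 4.56 ± 0.096, adjusted p = 3.13e-22, limma) and 9.03-fold in vector (2.96 ± 0.096, adjusted p = 1.37e-18, limma). Of the 13516 genes tested, 98 had a higher log2 difference than Tnfsf11 between the days in HOXB13 and 267 in vector. The virus difference at day 21 less that at day 1 was 1.60 ± 0.14 (adjusted p = 3.68e-10, limma). In RPM, 2142 genes stood above Tnfsf11 in HOXB13 and 4614 in vector at day 21, and 10757 in HOXB13 and 10041 in vector at day 1.

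Tnfrsf11b (ENSMUSG00000063727, chr15:54250619-54278484, minus strand), which encodes the decoy OPG, moved with time in opposite directions in HOXB13 and vector cells. Its libraries stood at 9.03, 7.79 and 8.91 RPM in HOXB13 and at 5.54, 6.90 and 4.44 RPM in vector at day 21. At day 1 they stood at 1.34, 1.04 and 0.922 RPM in HOXB13, on 15 to 23 reads each, and at 15.2, 14.6 and 15.1 RPM in vector, on 167 to 202 reads. None of the 4 groups overlapped another: vector at day 1 was highest, then HOXB13 at day 21, vector at day 21 and HOXB13 at day 1. The gene was higher in HOXB13 than in vector at day 21, with means of 8.58 ± 0.680 and 5.63 ± 1.23 RPM (SD, n = 3 each) and a log2 difference of 0.55 ± 0.12 (SE; adjusted p = 0.000416, limma).

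At day 1 the OPG transcript was 13.6-fold lower in HOXB13, at 1.10 ± 0.215 RPM, than in vector, at 15.0 ± 0.306 RPM (SD, n = 3 each). The log2 difference was -2.93 ± 0.12 (adjusted p = 5.52e-16, limma), and 78 of the 13516 genes tested had a lower one. Because the HOXB13 level was near the pseudocount of 1, this value depended on it and was -1.90 with a pseudocount of 4, while edgeR on the reads gave -3.71. Between day 21 and day 1, Tnfrsf11b rose 7.80-fold in HOXB13 (2.19 ± 0.12, adjusted p = 7.18e-14, limma; 1.30 with a pseudocount of 4) and was 2.66-fold lower at day 21 in vector (-1.29 ± 0.12, adjusted p = 1.32e-09, limma). The virus difference at day 21 less that at day 1 was 3.48 ± 0.18 (adjusted p = 2.50e-14, limma; 2.29 with a pseudocount of 4), and 60 of the 13516 genes had a higher one.

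**Figure D1:**
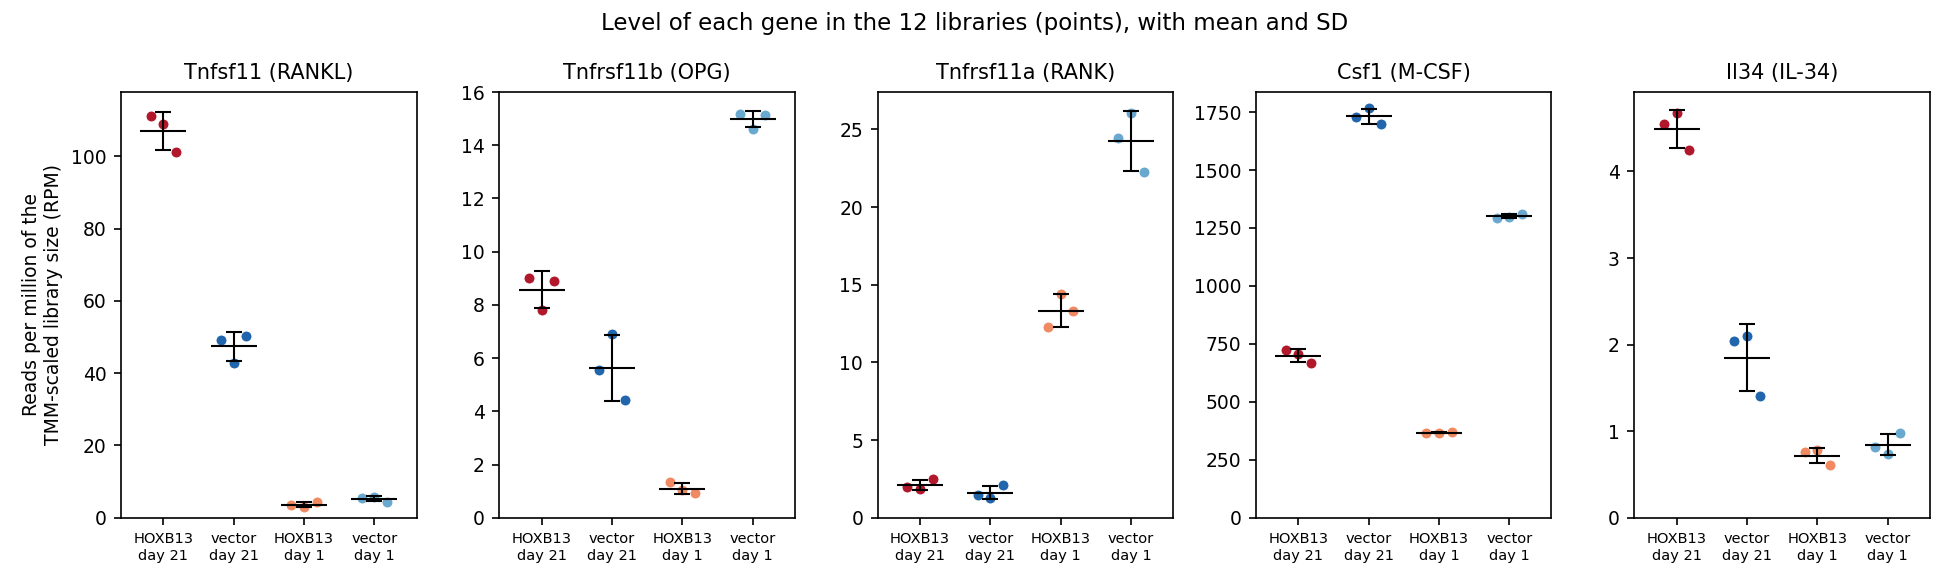
Level of each of the 5 genes in each of the 12 libraries, in RPM on linear axes that differ between genes, with the group mean as a line and SD as bars. Tnfsf11 in HOXB13 at day 21 lies between 101 and 111 RPM, above all other groups, whereas Tnfrsf11b is highest in vector at day 1, and Csf1 is lower in HOXB13 than in vector at both days.

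The ratio of Tnfsf11 reads to Tnfrsf11b reads, in which the scaling of a library cancels, was lowest in vector at day 1. It was 12.3, 14.0 and 11.3 in the HOXB13 libraries and 8.85, 6.20 and 11.4 in the vector libraries at day 21. At day 1 it was 2.57, 2.94 and 4.73 in the HOXB13 libraries and 0.365, 0.391 and 0.297 in the vector libraries. Only vector at day 1 had fewer reads of the ligand than of the decoy, and the groups at day 21 overlapped. Per base of exon the mean ratio was 15.8 in HOXB13 and 11.1 in vector at day 21, and 4.30 in HOXB13 and 0.442 in vector at day 1.

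At day 1 the ratio was 9.44-fold higher in HOXB13 than in vector (log2 difference 3.24 ± 0.29, SE; two-sided exact permutation p = 0.1). At day 21 the log2 difference was 0.55 ± 0.27 (exact permutation p = 0.2). Between day 21 and day 1 the ratio was 3.80-fold higher at day 21 in HOXB13 (1.92 ± 0.28, exact permutation p = 0.1) and 24.5-fold higher in vector (4.61 ± 0.28, exact permutation p = 0.1). With 3 libraries against 3 the smallest p these tests can give is 0.1, so none of the 4 comparisons could pass the threshold of 0.05. Adjusted over the 4 by Benjamini and Hochberg, the p-values were 0.133 for the 3 comparisons without overlap and 0.2 for the viruses at day 21 (exact permutation). At day 1 Tnfrsf11b was 13.6-fold lower in HOXB13 and Tnfsf11 only 1.45-fold lower, so the ratio was higher there although both of its genes were lower. The virus difference of the log2 ratio at day 21 less that at day 1 was -2.69 ± 0.40 (SE, no test). Summed over the libraries of a group, the ratio was 12.4 (95% exact interval 11.1 to 13.9, counting error only) in HOXB13 and 8.38 (7.28 to 9.69) in vector at day 21, and 3.28 (2.40 to 4.53) in HOXB13 and 0.350 (0.296 to 0.412) in vector at day 1.

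**Figure D2:**
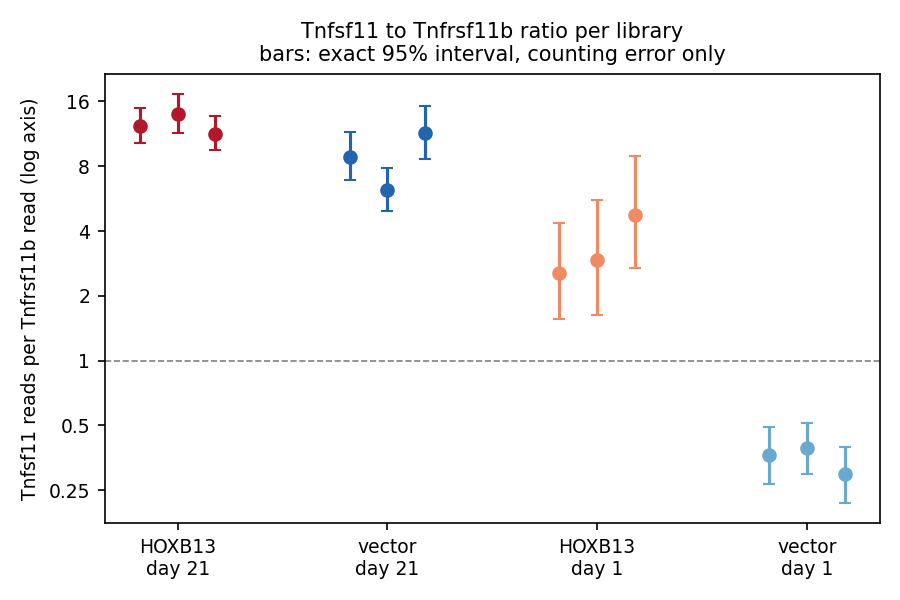
Ratio of Tnfsf11 reads to Tnfrsf11b reads in each library on a log axis, with exact 95% intervals that cover counting error only and a dashed line at equal reads. The 3 vector libraries at day 1 lie between 0.297 and 0.391, below the line, and the HOXB13 and vector libraries at day 21 overlap.

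Tnfrsf11a (ENSMUSG00000026321, chr1:105780718-105847981, plus strand), which encodes the receptor RANK, was lower at day 21 than at day 1 in both kinds of cell. At day 21 its libraries stood at 1.97, 1.87 and 2.51 RPM in HOXB13 and at 1.47, 1.27 and 2.10 RPM in vector, on 17 to 36 reads each. At day 1 they stood at 12.3, 14.4 and 13.3 RPM in HOXB13 and at 24.4, 26.1 and 22.2 RPM in vector. The viruses overlapped at day 21 and not at day 1, and every day-21 library was below every day-1 library. The gene was 6.30-fold lower at day 21 than at day 1 in HOXB13 (log2 difference -2.20 ± 0.12, SE; adjusted p = 4.36e-14, limma) and 15.0-fold lower in vector (-3.28 ± 0.12, adjusted p = 1.60e-17, limma), where 58 of 13516 genes had a lower log2 difference. It was lower in HOXB13 than in vector at day 1, with means of 13.3 ± 1.06 and 24.2 ± 1.91 RPM (SD, n = 3 each) and a log2 difference of -0.82 ± 0.12 (SE; adjusted p = 2.36e-06, limma).

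At day 21 the RANK transcript averaged 2.12 ± 0.341 RPM in HOXB13 and 1.61 ± 0.433 RPM in vector, and the log2 difference of 0.26 did not pass the test (95% interval 0.01 to 0.51, adjusted p = 0.0591, limma). It passed with a pseudocount of 0.25 (0.36, adjusted p = 0.0411), without HOXB13 replicate 2 (0.32, adjusted p = 0.0414) and without vector replicate 3 (0.39, adjusted p = 0.00677), and over all alternatives its adjusted p ran from 0.00677 to 0.254. The virus difference at day 21 less that at day 1 was 1.08 ± 0.17 (adjusted p = 7.57e-06, limma).

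Csf1 (ENSMUSG00000014599, chr3:107741048-107760469, minus strand), the gene of M-CSF, was the most abundant of the 5 genes per length in all 4 groups and was lower in HOXB13 than in vector at both days. Its libraries stood at 725, 705 and 669 RPM in HOXB13 and at 1728, 1767 and 1701 RPM in vector at day 21. At day 1 they stood at 365, 366 and 371 RPM in HOXB13 and at 1295, 1298 and 1309 RPM in vector. No group overlapped another, and the virus separated the libraries more widely than the day did. Csf1 was 2.47-fold lower in HOXB13 at day 21 (log2 difference -1.31 ± 0.03, SE; adjusted p = 2.65e-22, limma) and 3.54-fold lower at day 1 (-1.82 ± 0.03, adjusted p = 1.11e-24, limma). It rose 1.90-fold with time in HOXB13 (0.93 ± 0.03, adjusted p = 1.10e-19, limma) and 1.33-fold in vector (0.41 ± 0.03, adjusted p = 7.02e-13, limma). The virus difference at day 21 less that at day 1 was 0.51 ± 0.04 (adjusted p = 2.24e-11, limma), and it was 0.23 without the TMM factors. Of all genes tested, 157 stood above Csf1 in HOXB13 at day 21, against 40 in vector at day 21, and 296 in HOXB13 at day 1, against 59 in vector at day 1.

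Il34 (ENSMUSG00000031750, chr8:110741829-110805924, minus strand), the gene of the other CSF1R ligand, was a low transcript that rose with time. Its libraries stood at 4.55, 4.68 and 4.25 RPM in HOXB13 and at 2.04, 2.10 and 1.40 RPM in vector at day 21. At day 1 they stood at 0.756, 0.778 and 0.615 RPM in HOXB13 and at 0.818, 0.742 and 0.974 RPM in vector, on 9 to 13 reads each. The viruses were apart at day 21 and overlapped at day 1. At day 21 Il34 was 2.43-fold higher in HOXB13, at 4.49 ± 0.221 RPM, than in vector, at 1.85 ± 0.386 RPM (SD, n = 3 each; log2 difference 0.96 ± 0.12, SE, adjusted p = 2.87e-07, limma; 0.54 with a pseudocount of 4). At day 1 the log2 difference was -0.10 (95% interval -0.36 to 0.15, adjusted p = 0.467, limma). The change with time was 6.27-fold in HOXB13 (1.68 ± 0.12, adjusted p = 1.17e-11, limma) and 2.19-fold in vector (0.62 ± 0.12, adjusted p = 7.84e-05, limma). Both log2 values depended on the pseudocount at this depth, with 0.85 and 0.27 at a pseudocount of 4, and 2.61 and 1.13 from edgeR on the reads. Il34 reached the filter only through its day-21 libraries, so its selection favoured a rise with time. The p-values of its changes with time are therefore no support for such a rise. The virus difference at day 21 less that at day 1 was 1.06 ± 0.18 (adjusted p = 1.20e-05, limma; 0.58 with a pseudocount of 4). The antisense genes Gm15894 and Gm15895 overlap Il34. Whether the authors counted by strand was not stated in the sources used here, so its reads may include theirs.

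Of the 5 genes, 4 passed the test between HOXB13 and vector at day 21, where 72.4% of all genes tested did, and 4 at day 1, where 72.5% did. All 5 passed between the days in HOXB13 (80.1% of all genes) and in vector (83.6%). For Il34, which reached the filter only through its day-21 libraries, its selection favoured passing and the separation of the days given below. All 5 passed, with a positive sign, for the virus difference at day 21 less that at day 1, where 68.2% of all genes passed, 36.6% with a positive and 31.7% with a negative sign. Since most genes passed every test, the counts do not set these 5 genes apart. Libraries of the viruses did not overlap for 4 of 5 genes at day 21 (73.8% of all genes) and 4 of 5 at day 1 (75%). Those of the days did not overlap for all 5 in HOXB13 (81.8%) and in vector (83.7%). The comparisons share groups with one another, so their values stand side by side and are not independent of each other. Of all genes called between the viruses at day 21, 51.5% were higher in HOXB13 with the TMM factors and 44.2% without. At day 1 the shares were 46.8% and 67.0%. Between the days in HOXB13 they were 49.3% and 34.5%, and for the virus difference between the days 53.6% and 29.2%. Without the TMM factors the median of all genes moved by 0.18 on the log2 scale at day 1, by -0.23 between the days in HOXB13 and by -0.26 in the virus difference between the days. None of the 5 genes changed direction in any comparison.

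**Figure D3:**
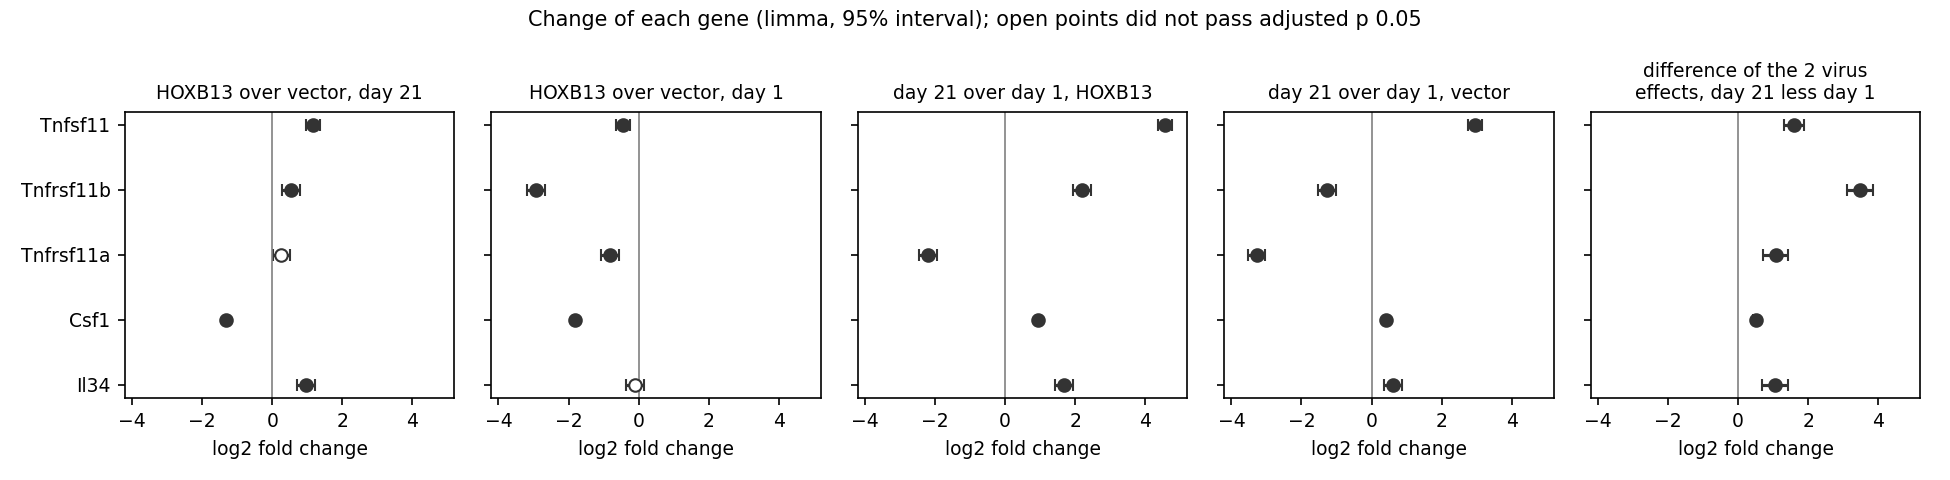
Log2 differences on the log2(RPM + 1) scale with 95% intervals for each of the 5 genes in the 4 comparisons, with the virus difference at day 21 less that at day 1 on the right and open points for tests not passed. Tnfrsf11b lies at 0.55 for HOXB13 against vector at day 21 and at -2.93 at day 1, and Csf1 lies below 0 at both days.

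Compared per kilobase of exon, which allows levels of different genes to be set side by side, Csf1 stood first in every group. In HOXB13 at day 21 it was at 132 ± 5.36 RPM per kilobase, Tnfsf11 the second at 47.9 ± 2.36, Tnfrsf11b at 3.04 ± 0.241, Il34 at 2.29 ± 0.113 and Tnfrsf11a at 0.354 ± 0.0570 (SD, n = 3). The order was the same in vector at day 21, with Csf1 at 328 ± 6.28 and Tnfsf11 at 21.2 ± 1.83 RPM per kilobase. In HOXB13 at day 1 Csf1, at 69.6 ± 0.538, was followed by Tnfrsf11a at 2.23 ± 0.177 and Tnfsf11 at 1.62 ± 0.302, and the libraries of Tnfrsf11b and Il34, at 0.390 ± 0.0763 and 0.366 ± 0.0454, overlapped. In vector at day 1 Csf1, at 246 ± 1.43, was followed by Tnfrsf11b at 5.31 ± 0.109, Tnfrsf11a at 4.05 ± 0.320, Tnfsf11 at 2.35 ± 0.296 and Il34 at 0.431 ± 0.0602 RPM per kilobase. No other neighbours in these orders had overlapping libraries, and Tnfsf11 stood in the second place at day 21 in both kinds of cell.

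The genes whose log2 levels were most like each of the 5 over the 12 libraries, by Pearson's r, are given as a description, since all genes share the same 4 groups. For Tnfsf11 they were Sod2 (r = 0.998), the mitochondrial superoxide dismutase, the collagenase Mmp13 (r = 0.997) and Dhrs7 (r = 0.997). Mmp13 was at 1358 RPM in HOXB13 and 266 RPM in vector at day 21 and at 1.29 RPM in HOXB13 and 2.42 RPM in vector at day 1. It had the same order of groups as Tnfsf11. For Tnfrsf11b they were the collagen chaperone Serpinh1 (r = 0.990), the collagen prolyl hydroxylase P4ha1 (r = 0.987) and the tRNA exporter Xpot (r = 0.983). Serpinh1 ran only from 1391 RPM in HOXB13 at day 1 to 2439 RPM in vector at day 1, since r compares the shape of a pattern and not its size. For Tnfrsf11a they were the nuclear import factor Ipo7 (r = 0.996), the adaptor Grb10 (r = 0.996) and the forkhead factor Foxc2 (r = 0.996). For Csf1 they were Zfp809, Mgll and Kalrn (r = 0.997, 0.996 and 0.996), and for Il34 Fcgr2b, Fgf7 and Srgn (r = 0.992, 0.992 and 0.991). The nearest tested genes on either side of Tnfsf11, Dnajc15 and Akap11, had log2 differences of 0.15 and 0.19 between the viruses at day 21, against 1.16 for Tnfsf11. Mtss2, 429 bases from Il34, differed by 0.82 at day 21, beside 0.96 for Il34, and Sf3b3, 4315 bases away on the other side, by -0.085. Between the days Mtss2 fell where Il34 rose, by -0.14 in HOXB13 and -1.30 in vector against 1.68 and 0.62 for Il34. Beside Tnfrsf11b, at 0.55 between the viruses at day 21, Samd12 was at 3.2 and Mal2 at -3.03. Beside Csf1, at -1.31, Ahcyl1 and Gstm5 were at -0.71 and -0.73, and beside Tnfrsf11a, at 0.26, Relch and Zcchc2 were at -0.25 and 0.27.

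Regulators of the 5 genes and other members of their pathway came from lists written from general knowledge, and some genes stand in more than 1 list. Some list genes reached the filter only through the groups where they were high, so their selection favoured their direction in the counts below. Il1a did so through HOXB13 at day 21, at 1.44 RPM against 0.686 RPM in vector, and Bmp2 through HOXB13 libraries. Of 23 tested regulators of RANKL in stromal cells, 14 were higher and 5 lower in HOXB13 than in vector at day 21, where 37.3% and 35.1% of all genes tested were. Their median log2 difference was 0.44, against 0.01 over all genes. Lifr, a receptor subunit for leukaemia inhibitory factor, was at 422 ± 19.4 RPM in HOXB13 and 52.3 ± 3.70 RPM in vector, and Ptges, which makes the RANKL inducer prostaglandin E2, at 218 ± 9.97 and 85.1 ± 8.08 RPM. Lif itself was at 3.09 ± 0.573 RPM in HOXB13 and 37.7 ± 1.08 RPM in vector, and Vdr, the receptor of the RANKL inducer vitamin D, at 12.5 ± 1.54 and 79.4 ± 2.68 RPM (SD, n = 3). At day 1, 10 were higher and 9 lower (33.9% and 38.5% of all genes), with a median of 0.06 against -0.03 over all genes. Il11ra1, an interleukin-11 receptor subunit, was at 20.9 ± 1.68 RPM in HOXB13 and 9.28 ± 0.779 RPM in vector at day 1. Lif and Vdr were lower in HOXB13 at both days, with Vdr at 2.79 ± 0.782 RPM in HOXB13 and 25.9 ± 1.42 RPM in vector at day 1. Lifr was higher at both, with 262 ± 4.99 RPM in HOXB13 and 56.9 ± 3.43 RPM in vector at day 1.

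Between day 21 and day 1, 15 of these 23 regulators were higher and 5 lower in HOXB13 (39.5% and 40.6% of all genes), and 12 were higher and 7 lower in vector (41.7% and 41.9%). Il1a and Ptger2, higher in both, reached the filter only through day-21 libraries, and Il11, lower in both, only through day-1 libraries. Their selection favoured these directions. The interleukin-1 receptor Il1r1 and Ptges rose in both. Il1r1 was at 479 ± 10.1 RPM at day 21 and 63.7 ± 0.996 RPM at day 1 in HOXB13 and at 243 ± 11.1 and 52.1 ± 3.04 RPM in vector. The cyclooxygenase Ptgs2 fell in both, with 34.1 ± 2.78 RPM at day 21 and 177 ± 8.94 RPM at day 1 in HOXB13. In vector it was at 81.7 ± 6.53 and 305 ± 15.6 RPM. Unlike Ptges, Ptgs2 was thus lower in HOXB13 than in vector at both days. Of 21 tested regulators of OPG, such as Notch, Wnt and TGF-β pathway genes, 11 were higher and 10 lower in HOXB13 at day 21 (37.3% and 35.1% of all genes; median 0.12), and 7 higher and 9 lower at day 1 (33.9% and 38.5%; median -0.16). Without the TMM factors the median of the OPG regulators at day 1 was 0.05, with 10 higher and 7 lower. Jag1, a Notch ligand, was lower in HOXB13 at both days, with 8.39 ± 0.460 RPM in HOXB13 and 31.4 ± 1.95 RPM in vector at day 21. Notch1 was higher at both, with 22.2 ± 0.501 and 5.95 ± 0.836 RPM at day 21.

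All 5 tested proteases that shed RANKL from the cell surface differed between the viruses at both days, 4 higher and 1 lower in HOXB13 at day 21 and 2 higher and 3 lower at day 1. Of all genes tested, 72.4% differed at day 21 and 72.5% at day 1. Adam19 was at 267 ± 2.74 RPM in HOXB13 and 65.8 ± 6.70 RPM in vector at day 21, Mmp3 at 1354 ± 75.1 and 484 ± 43.1 RPM, and Adam10, the lower gene, at 254 ± 5.52 and 351 ± 3.64 RPM. Among the 5 genes that encode receptors of these ligands, RANK included, 2 were higher and 2 lower in HOXB13 at day 21, and 1 was higher and 4 lower at day 1, with the same shares of all genes beside them. The higher genes at day 21 were Sdc1, which can bind IL-34, at 405 ± 11.2 RPM in HOXB13 and 172 ± 3.19 RPM in vector, and Lgr4, at which RANKL can also act, at 82.5 ± 0.964 and 50.8 ± 2.85 RPM. Ptprz1, another receptor that can bind IL-34, was lower in HOXB13 at day 1, at 4.56 ± 0.668 RPM against 109 ± 3.09 RPM in vector. Csf1r, the receptor of M-CSF and IL-34, was at 4.02 ± 0.409 RPM in HOXB13 and 5.19 ± 0.677 RPM in vector at day 21 (log2 difference -0.30, adjusted p = 0.0366, limma). That call was lost in 7 of the alternatives, in which its adjusted p ran from 0.0690 to 0.161.

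Of 22 tested genes of RANK signalling, 6 were higher and 8 lower in HOXB13 at day 21 (median -0.03) and 4 higher and 14 lower at day 1 (median -0.36). The shares of all genes tested, for these and the other lists of this paragraph, were 37.3% higher and 35.1% lower at day 21 and 33.9% and 38.5% at day 1. Without the TMM factors, 4 were higher and 12 lower at day 21, and 7 higher and 12 lower at day 1. Traf5 was at 13.1 ± 0.753 RPM in HOXB13 and 5.73 ± 0.164 RPM in vector at day 21, and Gab2 at 21.6 ± 0.622 and 55.4 ± 0.313 RPM. Of 26 tested other stromal regulators of osteoclasts, 13 were higher and 11 lower at day 21 (median 0.21) and 8 higher and 16 lower at day 1 (median -0.54). Hgf, a growth factor that acts on precursors, was at 226 ± 12.7 RPM in HOXB13 and 12.1 ± 1.31 RPM in vector at day 21, and Sema3a, an inhibitor of osteoclast formation, at 218 ± 5.80 and 75.9 ± 1.89 RPM. Cd200 was at 0.648 ± 0.175 RPM in HOXB13 and 69.7 ± 2.53 RPM in vector at day 21. Of 25 tested other ligands and receptors of the tumour necrosis factor family, 13 were higher and 11 lower at day 21 (median 0.27) and 6 higher and 12 lower at day 1 (median -0.09). Cd40 was at 16.2 ± 1.07 RPM in HOXB13 and 1.01 ± 0.169 RPM in vector at day 21, and Tnfsf18 at 0.0956 ± 0.106 and 34.3 ± 2.07 RPM. Tnfsf18 reached the filter only through vector libraries, and Tnfsf8 and Tnfrsf26, among the higher genes, only through HOXB13 at day 21. Selection thus favoured their directions in these counts.

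**Figure D4:**
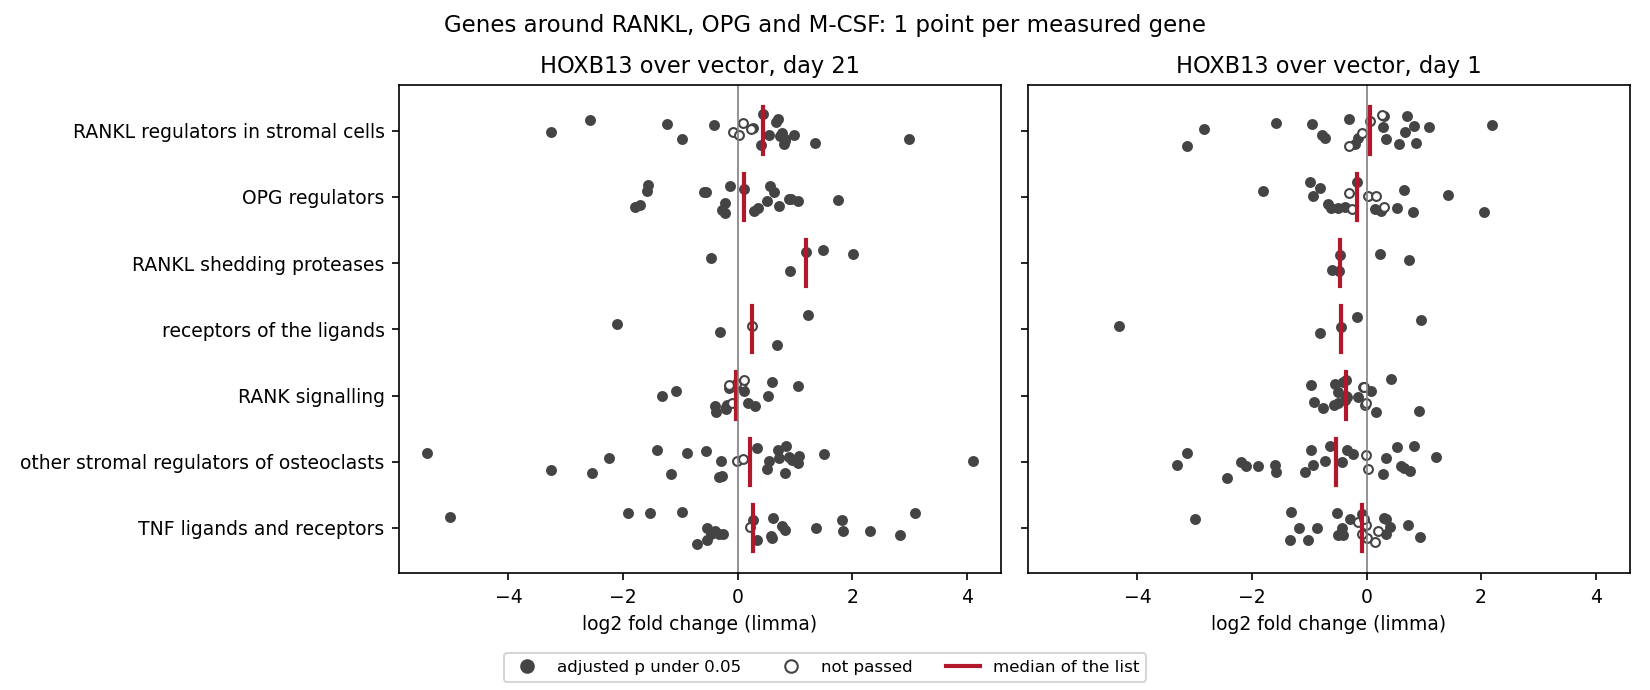
Log2 difference of each tested list gene on the log2(RPM + 1) scale, HOXB13 against vector, at day 21 and day 1, with 1 row per list, filled points for genes that passed the test and a bar at the list's median. The medians lie at 0.44 for RANKL regulators and -0.03 for RANK signalling at day 21, against 0.01 over all genes tested.

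Markers of other cell types moved with the groups as well. The 9 mesothelial markers, all tested, summed to 79.0 to 94.1 RPM in HOXB13 and 3803 to 3913 RPM in vector at day 21, and to 207 to 221 RPM in HOXB13 and 1238 to 1285 RPM in vector at day 1. Of the 9, all were lower in HOXB13 at day 21, where 35.1% of all genes were, and 8 at day 1, where 38.5% were. They moved the way Csf1 did between the viruses. With time their sum fell in HOXB13, where Csf1 rose, and rose in vector, as Csf1 did. The part of the mesothelial markers in the result was not tested. The 12 macrophage markers, of which 4 were tested, summed to 69.3 to 75.1 RPM in HOXB13 and 67.8 to 70.9 RPM in vector at day 21 and to 3.99 to 5.35 RPM in HOXB13 and 4.68 to 5.36 RPM in vector at day 1. Most of the day-21 sum was Cd14, at 63.8 ± 2.87 RPM in HOXB13 and 57.7 ± 0.589 RPM in vector. With time, 3 of the 4 tested markers, Cd14, Csf1r and Mpeg1, rose in each kind of cell, as Tnfsf11 did. Csf1r and Mpeg1 reached the filter only through day-21 libraries, so their selection favoured a rise. At day 1 Csf1r averaged 0.311 RPM in HOXB13 and 0.775 RPM in vector, and Mpeg1 0.0809 and 0.279 RPM. Of all genes tested, 39.5% rose in HOXB13 and 41.7% in vector. The remaining marker, Cd68, fell in HOXB13 (log2 difference -0.39) and did not pass the test in vector (0.16). The part of the macrophage markers in the rise of Tnfsf11 was not tested. Fcgr1 and Tyrobp had no read in any library and Ptprc at most 4 reads in a group. The 11 osteoclast markers, of which 6 were tested, summed to 1019 to 1090 RPM in HOXB13 and 298 to 311 RPM in vector at day 21 and to 277 to 285 RPM in HOXB13 and 171 to 174 RPM in vector at day 1. Ctsk, which fibroblasts also make, gave 792 ± 28.4 RPM of it in HOXB13 and 73.6 ± 2.09 RPM in vector at day 21. Acp5 and Clcn7 were also higher in HOXB13 at day 21 (log2 differences 0.43 and 0.41) and Tcirg1 was lower (-0.14). Mmp9 and Itgb3 did not pass the test (-0.06 and -0.02). Of all genes tested, 37.3% were higher and 35.1% lower. With time in HOXB13, Ctsk, Clcn7 and Mmp9 rose, Acp5 and Itgb3 fell (-0.47 and -1.38), and Tcirg1 did not pass. Dcstamp, which osteoclast precursors need to fuse, had no read in any library. The lymphocyte markers summed to at most 3.51 RPM in any library, and the T-cell markers Cd3g and Cd8a had no read in any library.

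The 12 osteoblast and osteocyte markers, of which 5 were tested, summed to 9646 to 10030.2 RPM in HOXB13 and 11122 to 12564 RPM in vector at day 21 and to 5796 to 5938 RPM in HOXB13 and 13606 to 13954 RPM in vector at day 1. Most of each sum was Col1a1, which fibroblasts also make. Between the viruses, 1 of the 5 was higher and 3 lower in HOXB13 at day 21 (37.3% and 35.1% of all genes), and 1 higher and 4 lower at day 1 (33.9% and 38.5%). Alpl, the alkaline phosphatase of mineralising cells, was at 13.4 ± 1.09 RPM in HOXB13 and 232 ± 3.61 RPM in vector at day 21 and at 0.430 ± 0.0233 RPM in HOXB13 and 4.43 ± 0.775 RPM in vector at day 1. It rose with time in both kinds of cell, as Tnfsf11 did, and was lower in HOXB13 at day 21, where Tnfsf11 was higher. Spp1, the bone matrix protein osteopontin, also rose with time, to 1224 ± 51.5 RPM at day 21 against 75.4 ± 3.48 RPM at day 1 in HOXB13 and to 1964 ± 79.6 RPM against 61.8 ± 1.09 RPM in vector. Runx2 and Phex instead fell with time, by log2 differences of -0.64 and -0.54 in HOXB13 and -1.11 and -1.21 in vector. Phex reached the filter only through vector at day 1, at 1.90 RPM. Its selection thus favoured its fall in vector and its lower level in HOXB13 at day 1. Col1a1 rose in HOXB13 (0.57) and fell in vector (-0.51). Bglap2 and Sost had no read in any library, and the part of these markers in the changes of Tnfsf11 was not tested.

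The 8 adipocyte markers, of which 5 were tested, summed to 878 to 883 RPM in HOXB13 and 644 to 662 RPM in vector at day 21 and to 84.5 to 91.9 RPM in HOXB13 and 187 to 200.01 RPM in vector at day 1. With time, 3 rose and 1 fell in each kind of cell. Of all genes tested, 39.5% rose and 40.6% fell in HOXB13, and 41.7% and 41.9% in vector. Fabp4, a fatty acid carrier, was at 362 ± 3.79 RPM in HOXB13 and 60.7 ± 5.44 RPM in vector at day 21 and at 55.6 ± 3.85 and 9.29 ± 0.212 RPM at day 1, whereas Pparg, a defining factor of adipocytes, was at 0.722 ± 0.120 and 6.06 ± 0.550 RPM at day 21. Lpl, lipoprotein lipase, was at 505 ± 5.28 RPM in HOXB13 and 577 ± 7.28 RPM in vector at day 21, against 17.3 ± 1.42 and 171 ± 6.07 RPM at day 1. The 5 endothelial markers, of which 2 were tested, summed to 3.26 to 4.91 RPM in HOXB13 and 31.7 to 33.7 RPM in vector at day 21 and to 5.38 to 5.72 RPM in HOXB13 and 14.3 to 14.8 RPM in vector at day 1. Kdr, a receptor of vascular endothelial growth factor, made up most of the vector sums and was lower in HOXB13 at both days, as Csf1 was. Tek, the other tested marker, was higher in HOXB13 at day 1, at 2.56 ± 0.162 RPM against 0.105 ± 0.0397 RPM in vector. At day 21 Tek was at 0.986 ± 0.526 RPM in HOXB13 and 1.01 ± 0.140 RPM in vector. The 8 chondrocyte markers, of which 5 were tested, summed to 8.42 to 11.7 RPM in HOXB13 and 19.4 to 21.3 RPM in vector at day 21 and to 32.7 to 40.8 RPM in HOXB13 and 33.5 to 37.3 RPM in vector at day 1. The part of these 3 lists in the results was not tested.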

How the data were processed

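The 12 libraries of mouse fibroblast RNA were made with a strand-specific NuGEN kit, per the labels' protocols. The deposited values are a signal in which the authors divided gene reads by TMM-scaled library size (reads per 1000000, RPM). In every library 100% of values above 0 were whole multiples of 1 read within 0.01, and these whole reads gave the depth. The submitters' processing notes name STAR 2.7.2a, HTSeq 0.6.1, edgeR, DESeq2 and the human build GRCh38, although the identifiers are mouse Ensembl ones. The mouse build was not given in the sources used here. Coordinates and lengths are from GENCODE M21 (GRCm38), which held 55394 of 55573 identifiers. No pairing of replicate numbers was used: over 10682 genes, 18 pairs of equally numbered libraries had residual correlations from -0.0749 to 0.0683, none above 0.1.

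The 13516 genes that reached 1 RPM in 3 or more libraries were tested with limma 3.58.1 (eBayes with trend, R 4.3.3) on log2(RPM + 1), which understates changes of low genes. The fit had 1 mean per group over all 12 libraries, was two-sided and was adjusted by Benjamini and Hochberg per contrast, with a threshold of 0.05. Read ratios were tested by exact permutation (scipy 1.17.1), and intervals cover counting error only. Alternatives were pseudocounts of 0.25 and 4, no filter, median-of-ratios scaling, no TMM factors, edgeR 4.0.16 and DESeq2 1.42.0 on recovered reads, a replicate block, only the groups compared, and leaving out each library. On the recovered reads, edgeR called 9755 genes between the viruses at day 21 and DESeq2 9029, against 9782 with limma; at day 1 the numbers were 9901, 9129 and 9796. The test was also run on simulated data with known changes.

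The genes, lists and tests were chosen with earlier results of these data known. The naming rule took, from each pathway list, the 2 highest and 2 lowest called genes by log2 fold change among those with a mean of at least 5 RPM in the higher group, and the 3 genes most like each of the 5; the text gives some of them. Neighbouring genes, markers and some other list genes were named beside them, outside that rule.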

Additional observations from a re-analysis of the deposited data

Results flagged for a closer look

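The difference between HOXB13 and vector was not the same at the 2 days for any of the 5 genes, by a limma test of the difference itself (adjusted p between 2.50e-14 and 1.20e-05). For Tnfrsf11b it was 0.55 at day 21 and -2.93 at day 1, a change of 3.48 on the log2 scale. For Tnfsf11 it was 1.16 at day 21 and -0.44 at day 1, a change of 1.60. For Tnfrsf11a it was 0.26 at day 21 and -0.82 at day 1, a change of 1.08, for Il34 0.96 and -0.10, a change of 1.06, and for Csf1 -1.31 and -1.82, a change of 0.51. The virus difference at day 21 less that at day 1 passed the same test in 68.2% of all genes tested.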

How the results depend on the processing

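For the 5 genes, their ratio and the counts of calls, 757 values under alternatives were classed as the same as the main result and 3 as stronger. None of them was reversed. For the tests of genes, the same meant an unchanged direction and side of the threshold. The ratio tests cannot give a p below 0.1, so their side of the threshold was fixed beforehand. Counts of calls have no such side, and the members called between the viruses at day 21 ran from 4 to 5 when a library was left out. Without the TMM factors the median of the OPG regulators at day 1 turned (0.05 against -0.16), and the share of called genes that were higher in HOXB13 at day 1 was 67.0% against 46.8%. Those 3 were Tnfrsf11a between the viruses at day 21, whose log2 difference of 0.26 passed the test with a pseudocount of 0.25 (0.36) and without HOXB13 replicate 2 or vector replicate 3; leaving out each library gave 0.17 to 0.39. The ratio of Tnfsf11 to Tnfrsf11b between the viruses at day 21 ran from 0.32 to 0.75 on the log2 scale when a library was left out, and with 1 added to both values it was 0.62 (exact permutation p = 0.1). The replicate block changed no call: it gave 1.16 for Tnfsf11 between the viruses at day 21 (adjusted p = 6.05e-10) and 0.26 for Tnfrsf11a (adjusted p = 0.0619). Among other genes, Csf1r at day 21 lost its call in 7 alternatives and Tnfsf12 at day 1 in 1, without vector replicate 2, and the shedding proteases called between the days in HOXB13 numbered 3 without the TMM factors against 5; the cause was not tested. Depth limits Il34 at day 1 (9 to 13 reads a library) and Tnfrsf11a at day 21 (17 to 36).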
